A study of Mus musculus with 5 samples.

Results

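Ribosome biogenesis and Pol I mRNAs were taken as the protein-coding genes whose symbol is Nop, Nol, Utp or Rrp followed by a digit, or begins with Polr1, together with Grwd1, Ncl, Npm1, Fbl, Dkc1, Nolc1, Pa2g4, Gnl3 and Bop1. Of 21951 protein-coding genes of the mm10 GENCODE M21 annotation, 50 met this rule. In the METTL3 inhibition dataset 32 of them had exonic positions, among 2607 protein-coding genes with positions. In the Mettl5 dataset the number was 20 of 1009, and all 20 were also among the 32. The other 18, including Fbl, the methyltransferase of box C/D snoRNPs, had no position among those analysed in either dataset. The rule goes by symbol, so it also took 3 genes outside ribosome assembly by function (Nol3, Nol4 and Nol4l), none of which had a position.

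Ribosome biogenesis starts in the nucleolus, where RNA polymerase I transcribes the ribosomal RNA precursor. Small nucleolar ribonucleoproteins (snoRNPs) then modify it, the small subunit processome and the large subunit assembly factors cut and fold it, and chaperones such as nucleolin and nucleophosmin act alongside. These mRNAs belong to the growth programme of mouse embryonic stem cells (mESCs), which divide fast. m6A, N6-methyladenosine, is placed on mRNA mainly by METTL3 at DRACH motifs (D is A, G or U, R is A or G, H is A, C or U), whereas METTL5 methylates an adenosine of the small subunit ribosomal RNA.

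Native poly(A) RNA was sequenced on nanopores, and m6A was called at each adenosine of each read. The METTL3 inhibition dataset held 1 library of DMSO-treated cells and 1 of cells given 30 μM STM2457, an inhibitor of METTL3 catalysis, for 48 h. Both came from E14 mESCs labelled WT that carry the reporters 2C::3xtbGFP-PEST and Zscan4::mCherry-PEST, a Dox::APOBEC1-YTH-HA-IRES-tdiRFP construct that was not induced, and a homozygous FKBP12 F36V tag at the C terminus of Mettl3 that was not engaged. The Mettl5 dataset, with another batch label, held 1 WT library and 1 library from each of 2 untreated Mettl5KO clones, so each clone is 1 line and 1 library. All cells were grown in serum with LIF, with 2i added for maintenance.

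The positions analysed number 471848 in the METTL3 inhibition dataset and 195787 in the Mettl5 dataset, each covered by at least 25 valid calls in every library of its dataset. Valid calls summed to 54051900 to 71574467 per library in the first dataset and to 17897440 to 22025887 in the second, with median coverages of 45 to 64. Of 10 stem cell markers, 10 and 8 had positions in the respective datasets, while none of 6 feeder, 8 differentiation and 3 2-cell-like markers did. Mettl5 itself had no position, so the knockout could not be checked here. No condition has a replicate library, so each Fisher's exact test below compares libraries, not conditions, and intervals are 95% Clopper-Pearson intervals that cover counting error only. Calls summed over a gene come many to a read and are not independent, so gene-level p-values are too small.

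The ribosome biogenesis and Pol I mRNAs held 8669 of the positions in the METTL3 inhibition dataset, 703 of them at DRACH motifs. The methylation level, the share of valid calls that were m6A, was 1.67% (1.65 to 1.70) over all their adenosines in DMSO and 0.898% (0.877 to 0.918) in STM2457. At DRACH adenosines alone it was 10.8% in DMSO and 2.81% in STM2457, beside 7.97% and 2.06% over all protein-coding genes. At their other adenosines it was 0.874% and 0.735%. Both were lower in STM2457, those at DRACH adenosines by more.

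An adenosine was counted as a site if both libraries had more than 25 valid calls there and either of them reached 25% m6A. There were 124 on 28 of the 32 mRNAs, among 6159 on all protein-coding exons. The 28 mRNAs were Polr1a, Polr1c, Polr1d, Nop56, Nop10, Dkc1, Nolc1, Utp3, Utp4, Utp6, Utp14a, Utp23, Nol6, Nol11, Nop9, Rrp9, Rrp36, Bop1, Grwd1, Nol9, Nol12, Nop2, Nop16, Rrp1, Rrp8, Rrp15, Pa2g4 and Ncl, and the 4 without a site were Nop58, Npm1, Gnl3 and Nol7. DRACH motifs held 110 of the 124 (88.7%, as against 88.7% of all sites). In the 3′ UTR lay 85 (68.5%, against 67.3% of all sites), the other 39 lay in coding sequence, and 112 were in the last exon of the transcript.

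The last exon stood apart in how often a DRACH adenosine was a site. In DMSO 105 of the 372 last-exon DRACH adenosines of these mRNAs reached 25% (28.2%), and 5 of the 317 in other exons did (1.58%). Over all protein-coding genes the shares were 18.4% of 27460 and 4.0% of 10569. These are counts over adenosines that share transcripts and reads, so they are given without a test.

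The sequences below are those of the most methylated sites covered by at least 100 valid calls in both libraries, as 10 bases either side of the adenosine in the GENCODE M21 transcript, 5′ to 3′ on the strand of the gene (mm10). Capitals mark the 5-base motif with the called adenosine at its centre.
Grwd1, 139 bases after the stop codon (3′ UTR, exon 8 of 8, chr7:45825627-45825647, minus strand): gaaggaacGGACTctactgac
Polr1d, 43 bases before the stop codon (coding sequence, exon 2 of 2, chr5:147078857-147078877, plus strand): agcataaaGGACTataaagct
Nop2, 5 bases after the stop codon (3′ UTR, exon 16 of 16, chr6:125144636-125144656, plus strand): tcttaaatGGACTtggaaact
Nop2, 214 bases before the stop codon (coding sequence, exon 16 of 16, chr6:125144417-125144437, plus strand): aggcctaaGGACTgtgctcca
Grwd1, 290 bases after the stop codon (3′ UTR, exon 8 of 8, chr7:45825476-45825496, minus strand): gaccccaaGGACCtctgacca
Grwd1, 42 bases after the stop codon (3′ UTR, exon 8 of 8, chr7:45825724-45825744, minus strand): ccacatggGAACTggatcggt
Grwd1, 201 bases after the stop codon (3′ UTR, exon 8 of 8, chr7:45825565-45825585, minus strand): tacaccaaAGACTaggtgcag
Ncl, 93 bases after the stop codon (3′ UTR, exon 14 of 14, chr1:86350517-86350537, minus strand): ccttctaaGGACAttccaaga
Grwd1, 304 bases after the stop codon (3′ UTR, exon 8 of 8, chr7:45825462-45825482, minus strand): ctgaccagGGACCtaattctg
Nop2, 274 bases before the stop codon (coding sequence, exon 16 of 16, chr6:125144357-125144377, plus strand): agggttgaGGACTcgagaaca

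All 10 carried a DRACH motif, 5 of them GGACT, and 9 lay in Grwd1, Nop2 or Ncl. The Grwd1 site 139 bases after the stop codon had the highest level in DMSO of the 10, 98.4% (94.2 to 99.8) of 123 valid calls, and 57.8% (48.2 to 66.9) of 116 in STM2457. Its motif and the 8 bases before it were the same as at a site of Nol12 141 bases after the stop codon, which stood at 97.8% in DMSO and 45.9% in STM2457. No other of the 6159 sites had these 13 bases in that place. Longer runs around the motif were shared within Nop16 and within Rrp8. The Nop16 sites 319 and 148 bases after the stop codon shared 16 bases. They stood at 76.2% and 45.9% in DMSO and at 13.6% and 6.33% in STM2457. The Rrp8 sites 1057 and 1186 bases before the stop codon shared 14 bases, at 27.3% and 27.8% in DMSO. Whether shared bases go with the level was not tested.

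The highest site of each other mRNA with at least 3 sites is shown for comparison of the motifs, capitals as before.
Ncl, 43 bases after the stop codon (3′ UTR, exon 14 of 14, chr1:86350567-86350587, minus strand): taaagaaaGGACTctggggtt
Nol6, 274 bases after the stop codon (3′ UTR, exon 26 of 26, chr4:41115073-41115093, minus strand): gtcagcctGAACTcttgttca
Nol9, 798 bases after the stop codon (3′ UTR, exon 12 of 12, chr4:152059263-152059283, plus strand): cctggagtGGACAcatacatg
Nol11, 51 bases after the stop codon (3′ UTR, exon 18 of 18, chr11:107167464-107167484, minus strand): ctggccgcGAACTcagagatc
Nol12, 141 bases after the stop codon (3′ UTR, exon 6 of 6, chr15:78940759-78940779, plus strand): gaaggaacGGACTtctgagag
Nolc1, 101 bases after the stop codon (3′ UTR, exon 13 of 13, chr19:46084261-46084281, plus strand): tgtgacaaGGACGgtgtggag
Nop9, 14 bases after the stop codon (3′ UTR, exon 10 of 10, chr14:55753802-55753822, plus strand): ttgcaacgGGACTcggtcttg
Nop16, 214 bases after the stop codon (3′ UTR, exon 5 of 5, chr13:54585057-54585077, minus strand): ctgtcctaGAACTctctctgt
Pa2g4, 1019 bases after the stop codon (3′ UTR, exon 12 of 12, chr10:128557877-128557897, minus strand): gaagctgtGGACTtggatgct
Polr1a, 535 bases after the stop codon (3′ UTR, exon 34 of 34, chr6:71979040-71979060, plus strand): ccagaccaGAACActcccaca
Rrp8, 283 bases after the stop codon (3′ UTR, exon 7 of 7, chr7:105732731-105732751, minus strand): tcggctgaGAACTgatggatc
Rrp15, 122 bases after the stop codon (3′ UTR, exon 5 of 5, chr1:186721271-186721291, minus strand): tcaggtgcAGACTgtattaaa
Rrp36, 136 bases after the stop codon (3′ UTR, exon 7 of 7, chr17:46667804-46667824, minus strand): gtgctcttGGACTgcgctagg
Utp3, 1003 bases before the stop codon (coding sequence, exon 1 of 1, chr5:88555010-88555030, plus strand): tacgatacGGACTatggttcc

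All but the Nolc1 site fit DRACH. That site, GGACG, stood at 89.5% of 153 valid calls in DMSO and 38.6% of 88 in STM2457, while its G in the last place keeps it outside the motif. The Utp3 site was the only 1 of these 14 in coding sequence, in the single exon of that gene.

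Comparison of the STM2457 library with the DMSO library asked which m6A depends on METTL3 activity. The gene level was lower in STM2457 for 25 of the 32 mRNAs (78.1%) at an adjusted p below 0.05 (two-sided Fisher's exact test, Benjamini-Hochberg over 2607 genes), where 70.3% of all genes were lower. It was higher for 1, Npm1, where 0.153% of all genes were higher, and 6 were not called. The median ratio of STM2457 to DMSO was 0.52 over 31 mRNAs with m6A calls in DMSO and 0.54 over 2562 such genes of all kinds. With DRACH adenosines alone, 27 of the 32 were lower. Gene levels include the other adenosines, at 0.874% in DMSO and 0.735% in STM2457 over these mRNAs. A gene fold is therefore not a fold of m6A at DRACH motifs.

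**Figure D1:**
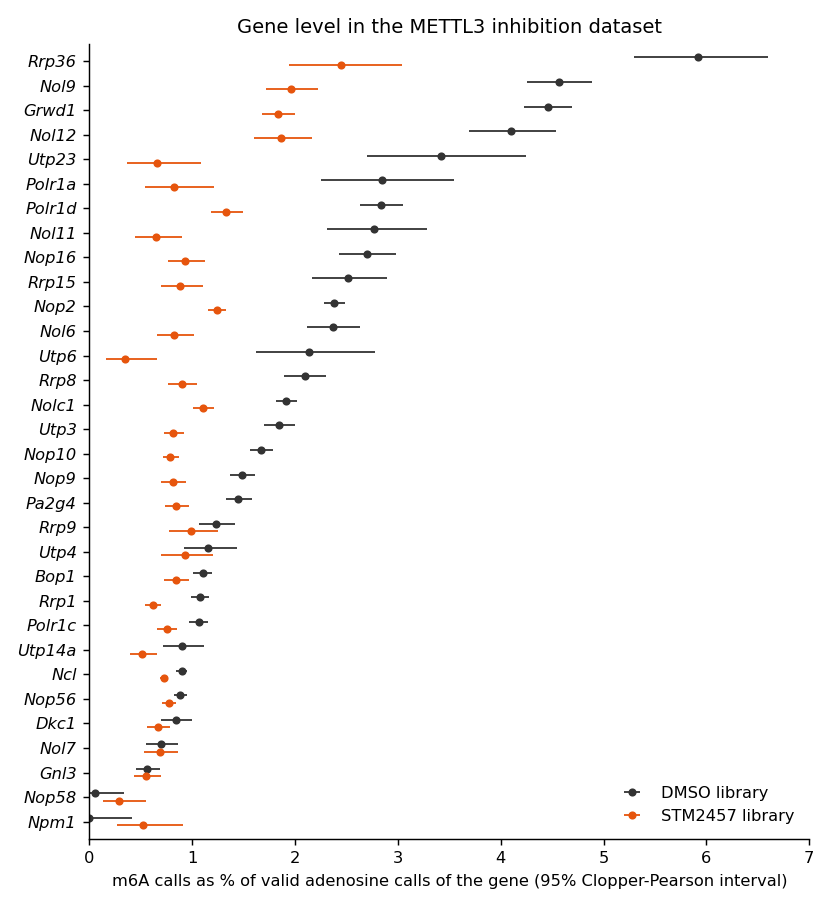
Methylation level of each of the 32 mRNAs (m6A calls as % of valid adenosine calls of the gene, x axis) in the DMSO library (black) and the STM2457 library (orange), with 95% Clopper-Pearson intervals, ordered by the DMSO level. Rrp36 (5.92% in DMSO), Nol9, Grwd1 and Nol12 stand highest. The pairs of points at the bottom, from Dkc1 down, overlap in their intervals, as do those of Nop56, Utp4 and Rrp9 above them. The exons covered differ between mRNAs.

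All 3 covered RNA polymerase I subunits were lower in STM2457. Polr1a, the largest subunit, went from 2.85% (2.25 to 3.55) of 2705 valid calls in DMSO to 0.826% (0.541 to 1.21) of 3146 in STM2457, 3.44-fold lower (adjusted p = 1.44e-08, Fisher's exact test). Polr1d, which is shared with RNA polymerase III, went from 2.83% (2.63 to 3.05) of 24939 to 1.33% (1.19 to 1.49) of 22462, 2.13-fold lower (adjusted p = 1.4e-29, Fisher's exact test). Polr1c, the other shared subunit, fell from 1.06% to 0.752%, 1.41-fold, and from 5.18% to 0.587% at its DRACH adenosines. It had 1 site, 4 bases before the stop codon, at 51.8% of 274 valid calls in DMSO and 4.97% of 181 in STM2457. The 3 sites of Polr1a were at 26.9% to 46.4% in DMSO and 2.63% to 10.7% in STM2457. Of the 3 sites of Polr1d, 2 were near 50% in DMSO (48.1% and 51.6%) and 4.26% and 5.41% in STM2457, and the third is described with the sites that did not respond.

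Among the 5 covered snoRNP mRNAs, Nop10, Nolc1 and Nop56 were lower and Dkc1 and Nop58 were not called. Nop10, a core protein of H/ACA snoRNPs, went from 1.67% (1.57 to 1.79) to 0.789% (0.715 to 0.867), 2.12-fold lower. Its 1 site, 157 bases after the stop codon, was the most deeply covered of all 124, with 51.6% of 622 valid calls in DMSO and 5.17% of 619 in STM2457 (adjusted p = 2.19e-79, Fisher's exact test). Nolc1, a chaperone of snoRNPs, went from 1.91% (1.81 to 2.02) to 1.11% (1.01 to 1.21). Nop56, a core box C/D protein, moved least of the lower mRNAs in gene level, from 0.885% (0.826 to 0.948) to 0.77% (0.705 to 0.839) (adjusted p = 0.0197, Fisher's exact test). At its DRACH adenosines the level was 1.44% in DMSO and 0.528% in STM2457. Its single site, 6 bases after the stop codon, was called m6A in 100% of 41 valid calls in DMSO and 37.5% of 40 in STM2457.

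For Dkc1, the pseudouridine synthase, the level was 0.839% in DMSO and 0.665% in STM2457 (adjusted p = 0.0885, Fisher's exact test), and its 1 site was at 32.5% of 40 and 7.02% of 57. At its DRACH adenosines the level was 3.44% in DMSO and 0.710% in STM2457. Nop58 held 1 m6A call of 1670 in DMSO and 9 of 3072 in STM2457 (adjusted p = 0.227, Fisher's exact test). These were the lowest counts of the snoRNP group.

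Of 11 small subunit factors 8 were lower. Rrp36, covered in its last exon alone, had the highest gene level of the 32 mRNAs, 5.92% (5.29 to 6.60) in DMSO and 2.45% (1.94 to 3.04) in STM2457. It had 7 sites within 481 bases after the stop codon. Gene levels are over the covered exons, which differ between mRNAs, so their order does not compare like parts. Utp3, a processome factor encoded by 1 exon, went from 1.84% to 0.817%, 2.25-fold, with 9 sites, 8 of them in coding sequence. Nop9 went from 1.48% (1.37 to 1.61) to 0.81% (0.696 to 0.937), and Nol6 from 2.37% (2.12 to 2.64) to 0.823% (0.656 to 1.02). The Nol6 site 274 bases after the stop codon went from 88.9% of 45 to 15.2% of 33.

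Utp6, Utp23 and Nol11, at mean coverages of 26.2 to 40.9 per adenosine, had the largest ratios of the group. Utp6 was 6.13-fold lower (2.14% and 0.349%), Utp23 5.17-fold (3.41% and 0.661%) and Nol11 4.29-fold (2.76% and 0.644%). Utp14a went from 0.898% to 0.515% (adjusted p = 0.00146, Fisher's exact test). At 1 site of Utp6 and 1 of Nol6 no read in STM2457 was called m6A, 0 of 26 and 0 of 38. Taking a count of 0 to allow up to 3, this allows levels of up to 11.5% and 7.89%. The upper Clopper-Pearson limits were 13.2% and 9.25%.

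The small subunit factors not called were Rrp9, Utp4 and Nol7. Rrp9, a U3 snoRNP protein, was at 1.23% (1.06 to 1.42) and 0.988% (0.771 to 1.25), and Utp4 at 1.16% and 0.925%. Nol7 was at 0.694% (0.551 to 0.861) and 0.683% (0.532 to 0.864). At DRACH adenosines alone Utp4 was at 3.88% of 387 valid calls in DMSO and 0.904% of 332 in STM2457. Rrp9 and Nol7 were there at 0.574% and 0.568% in DMSO and had no m6A call in STM2457. Rrp9 had positions in inner exons alone, and Nol7 had 12 DRACH positions and no site.

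Of 11 large subunit factors 10 were lower, and Gnl3, nucleostemin, was not called, at 0.559% (0.452 to 0.683) and 0.552% (0.434 to 0.693). Grwd1, a chaperone of a large subunit ribosomal protein, went from 4.46% (4.23 to 4.70) of 30304 valid calls to 1.83% (1.68 to 2.0) of 28261 (adjusted p = 1.16e-73, Fisher's exact test). Nol9, the kinase of spacer processing, went from 4.57% (4.26 to 4.89) to 1.96% (1.72 to 2.22) and had the most sites of any of the mRNAs, 17, all in its last exon between 17 and 1459 bases after the stop codon. Nol12, a nucleolar RNA-binding protein, went from 4.10% to 1.87%, and Nop2, a cytosine methyltransferase of the large ribosomal RNA, from 2.38% (2.28 to 2.49) to 1.24% (1.16 to 1.33). These 4 mRNAs carried 41 of the 124 sites.

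Nop16 (2.70% and 0.928%), Rrp15 (2.51% and 0.882%) and Rrp8 (2.09% and 0.896%) were 2.90-fold, 2.85-fold and 2.33-fold lower. Rrp8, an adenine methyltransferase of the large ribosomal RNA, had 3 of its 9 sites in exons 2 and 3 of 7, at 27.3%, 27.8% and 68.8% in DMSO. They made up 3 of the 5 DRACH sites that these mRNAs had outside a last exon. The other 2 were a Nop9 site in exon 2 of 10 (70.2% of 84 in DMSO, 11.1% of 45 in STM2457) and the Utp14a site in exon 12 of 15 (47.2% of 36 and 3.92% of 51).

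Rrp1 (1.07% and 0.618%), Pa2g4 (1.45% and 0.846%) and Bop1 (1.10% and 0.84%) were lower by 1.74-fold, 1.71-fold and 1.31-fold. Bop1, of the PeBoW complex, had 1 site, at an AGAGG motif, with 25.7% of 70 and 11.5% of 26. Its DRACH adenosines were at 1.15% in DMSO and 0.399% in STM2457.

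The chaperones were called in opposite directions by the test, Npm1 on few m6A calls. Ncl, nucleolin, had the most valid calls of the group, 118496 in DMSO and 201235 in STM2457, with levels of 0.896% (0.843 to 0.952) and 0.729% (0.692 to 0.767) (adjusted p = 6.93e-07, Fisher's exact test). Its 3 sites all lay in the 3′ UTR and went from 26.7%, 76.2% and 87.1% to 5.48%, 16.8% and 32.8%. Npm1, nucleophosmin, had 34 positions, all in the last exon and 2 of them DRACH. It had 0 m6A calls of 886 in DMSO and 12 of 2287 in STM2457, 0.525% (0.271 to 0.915). The 0 calls allow a level of up to 0.339% if up to 3 calls are allowed, and 0.415% by the Clopper-Pearson interval. The test called it higher (adjusted p = 0.0367, Fisher's exact test), but the interval in STM2457 reaches below the level that 0 calls allow in DMSO, and no fold is given. None of the 12 calls was at a DRACH adenosine, and the level in STM2457 was below the 0.735% of the non-DRACH adenosines of all 32 mRNAs.

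At the sites, 112 of the 124 (90.3%) were lower in STM2457, where 91.6% of all 6159 sites were. None was higher at an adjusted p below 0.05, 3 had a higher level at any p, and 18 of all sites were called higher. Of the 12 not called, 9 lay outside DRACH motifs and 3 within, and of the 14 sites outside DRACH motifs the 5 called lower had GGACG or GGATT motifs. Over the 122 sites at 25% or more in DMSO, levels had medians of 57.4% (DMSO) and 13.2% (STM2457), and the median relative decrease was 78.0% (75.2 to 80.8, from order statistics), beside 80.2% over 6056 such sites of all genes. Placing the 3 sites without an m6A call in STM2457 at the bound their coverage allows gave 77.3%. Still at 25% or more in STM2457 were 31 of the 122 (25.4%), beside 20.8% over all genes.

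**Figure D2:**
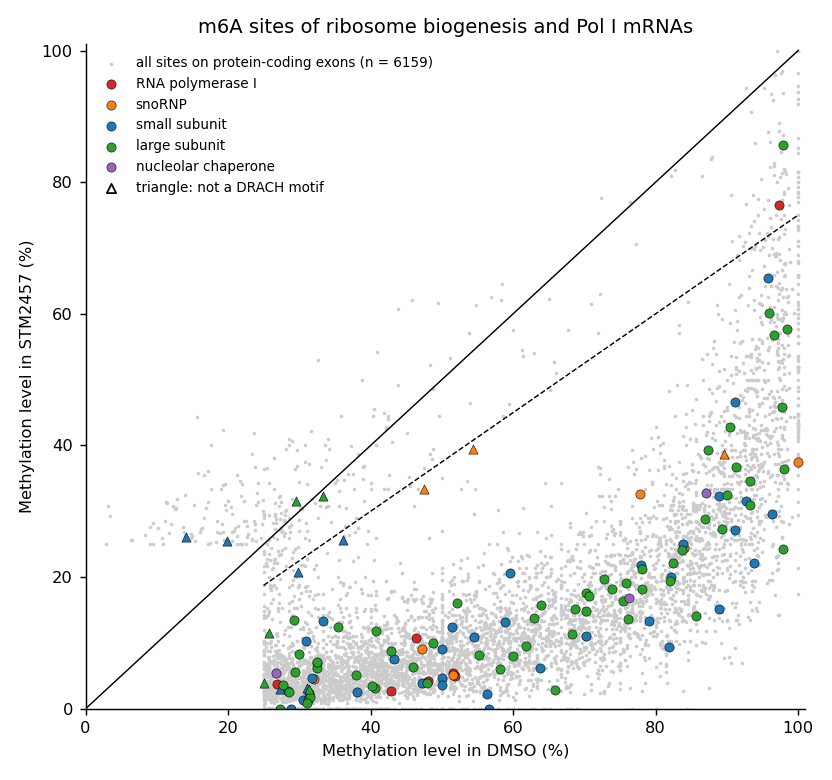
Methylation level (%) of each site in DMSO (x axis) and STM2457 (y axis), for all 6159 sites (grey) and the 124 sites of ribosome biogenesis and Pol I mRNAs coloured by role, with triangles for sites outside DRACH motifs. The solid line marks equal levels and the dashed line a relative decrease of 25%, above which 4 of the 122 sites lie, and the DRACH sites follow a curve that rises steeply above 90% in DMSO.

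The share left in STM2457 was larger where the DMSO level was higher. The median site kept 13.8% of its DMSO level among the 38 DRACH sites at 25% to 50%, 16.7% among 29 at 50% to 75%, 27.0% among 23 at 75% to 90%, and 38.8% among 20 at 90% or more. Over all genes the values were 13.03%, 17.8%, 26.4% and 44.8%. Of the 20 highest sites 18 were still at 25% or more in STM2457, while of 48 sites under 50% in DMSO 4 were, none of them DRACH. These classes were set by the DMSO level, which also enters the share, so they are a description.

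By motif, the 25 GGACT sites had a median of 85.7% in DMSO and 25% in STM2457, and the 25 GAACT sites 63.8% and 11.4%. The 16 AGACT sites were at 59.1% and 10.7%, and the 12 GGACA sites at 75.1% and 17.5%. Over all genes 1344 GGACT sites had medians of 73.7% and 15.4%, and 926 GGACA sites 56.5% and 10%.

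Sites not responsive to STM2457 were defined as 25% or more in DMSO with a relative decrease under 25%. There were 4 of 122 (3.28%), where 4.31% of all 6056 sites met the same definition. They are shown because 2 have DRACH motifs and levels near the top of the range and 2 have neither.
Polr1d, 43 bases before the stop codon (coding sequence, exon 2 of 2, chr5:147078857-147078877, plus strand): agcataaaGGACTataaagct
Nol9, 528 bases after the stop codon (3′ UTR, exon 12 of 12, chr4:152058993-152059013, plus strand): agccatgtGGACAttagcaac
Pa2g4, 259 bases before the stop codon (coding sequence, exon 9 of 12, chr10:128559439-128559459, minus strand): aacgttctCTATGagaaggag
Nop2, 617 bases before the stop codon (coding sequence, exon 16 of 16, chr6:125144014-125144034, plus strand): agctacccCTACAgagcctga

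The Polr1d site was at 97.4% (93.4 to 99.3) of 153 valid calls in DMSO and 76.6% (68.7 to 83.3) of 141 in STM2457, still lower by the test (adjusted p = 7.98e-08, Fisher's exact test). Its neighbour 68 bases downstream in the same exon, at a GGACC motif, went from 51.6% of 155 to 5.41% of 148. The Nol9 site was at 97.9% (88.9 to 99.9) of 48 and 85.7% (69.7 to 95.2) of 35 (adjusted p = 0.0837, Fisher's exact test), with the site 50 bases upstream at 89.4% and 27.3% and that 140 bases downstream at 90.4% and 42.9%.

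The sites without a DRACH motif were the Pa2g4 adenosine in exon 9 of 12, at 33.3% (20.8 to 47.9) of 51 and 32.4% (17.4 to 50.5) of 34, and the Nop2 adenosine in exon 16 of 16, at 29.6% (19.3 to 41.6) of 71 and 31.6% (19.9 to 45.2) of 57. Just above the limit, with decreases of 27.5% to 30.4%, were 4 sites outside DRACH motifs. They were 2 inner-exon Nolc1 adenosines at CCAGT and CCAGC, with 54.4% of 79 and 39.5% of 38, and 47.5% of 61 and 33.3% of 36, a Utp3 adenosine at GTAAA in the 3′ UTR, with 36.1% of 36 and 25.7% of 35, and an inner-exon Rrp9 adenosine at CTATG, with 29.8% of 114 and 20.8% of 53. Under 25% in DMSO and above it in STM2457 were Utp4 at TCATG, 14.1% (6.97 to 24.4) and 26.1% (14.3 to 41.1), and Rrp9 at TCACG, 19.8% (12.5 to 28.9) and 25.5% (14.7 to 39.0). For none of these 8 did the libraries differ at an adjusted p below 0.05 (lowest 0.154, Fisher's exact test). Failed calls, those below the confidence filter and outside the levels, were many at these adenosines. At the Nop2 adenosine 162 failed beside the 71 valid calls in DMSO and 134 beside 57 in STM2457, and at the Pa2g4 adenosine 60 beside 51 and 34 beside 34. Counted as unmodified, they put Nop2 at 9.01% and 9.42% and Pa2g4 at 15.3% and 16.2%, so neither would be a site. Over the 14 sites outside DRACH motifs 35.5% of calls failed in DMSO and 36.1% in STM2457, as against 3.79% and 3.49% over the 110 DRACH sites. The Polr1d and Nol9 sites had 12 and 1 failed calls in DMSO.

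The other ribosome biogenesis genes, which the rule left out, were taken from a list of 80 symbols. Of these 46 were covered, 35 were lower in STM2457 (76.1%) and none was higher, and their 142 sites had a median decrease of 80.0%. The 4 with most valid calls were Snu13, a protein of box C/D snoRNPs (1.09% and 0.618%), Emg1, a pseudouridine methyltransferase (1.49% and 0.781%), Nip7, a large subunit factor (2.65% and 1.20%), and Ftsj3, a ribose methyltransferase (1.08% and 0.692%).

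Coverage of the mRNAs also differed between the libraries. For each gene the depth was its valid calls as a share of the library's, which is a measure of reads over the analysed positions and cannot tell fewer transcripts per cell from other sources of depth. Of the 32 mRNAs 3 were at least 2-fold higher in STM2457 (9.38%), where 3.74% of 2543 genes were, and none was 2-fold lower, where 0.511% were. The median log2 ratio was 0.22 over the 32 and 0.11 over all genes, so values are best read against 0.11. No test can be made with 1 library per condition.

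Npm1 had a mean coverage of 26.1 valid calls per position in DMSO and 67.3 in STM2457, 3.42-fold more as a share of the library. For Nop58 the means were 27.8 and 51.2, or 2.44-fold. Ncl had 160 and 272, or 2.25-fold. At the other end were Bop1 with 116 and 53.7 (log2 ratio -0.70), Rrp9 with 160 and 75.4 (-0.68), Nop9 (-0.41) and Nolc1 (-0.38). Npm1 and Nop58 were covered in their last exon alone, with DMSO coverage close to the lower limit of 25, so that positions under that limit in DMSO are not among those analysed.

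Coverage was not even along these transcripts. Of 72 exon junctions with a median of at least 100 valid calls in DMSO on either side, 15 showed a step of over 2-fold or had no position on 1 side. The median intron was 123 bases at the 57 even junctions and 704 bases at those 15. Over all genes it was 129 bases at 1024 even junctions and 979 bases at the 739 others. Bop1, for example, was covered from exon 4, after an intron of 10745 bases, and Nop56 stood at medians of 257 to 281 in exons 4 to 11 and 37 in exon 12, after an intron of 606 bases. The cause was not tested.

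In Ncl the step lay at the intron of 704 bases between exons 11 and 12. Exons 3 to 11 had a median of 189 valid calls in DMSO and 301 in STM2457, and exons 12 to 14 had 64 and 181. The log2 ratio of STM2457 to DMSO was 1.08 over exons 3 to 11 and 1.87 over exons 12 to 14, against 1.17 for the gene. Depth ratios here therefore describe stretches of a transcript, and a gene level is weighted toward the deeper stretch: the 3 Ncl sites lie in exon 14, while most Ncl calls come from exons 3 to 11.

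**Figure D3:**
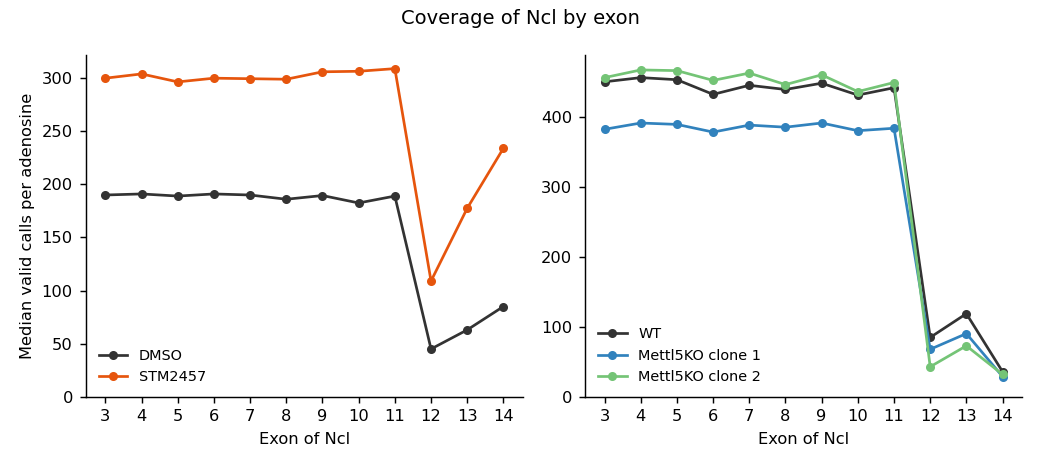
Median valid calls per adenosine (y axis) in exons 3 to 14 of Ncl (x axis), for the DMSO and STM2457 libraries (left) and WT and the Mettl5KO clones (right). All 5 libraries drop between exons 11 and 12, from 189 to 45 in DMSO and from 442.5 to 85 in WT.

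Comparison of the Mettl5KO clones with WT asked whether m6A on these mRNAs depends on METTL5. The 20 covered mRNAs held 3849 positions. Summed over them, 1.43% (1.39 to 1.46) of WT calls, 1.39% (1.36 to 1.43) of clone 1 calls and 1.41% (1.37 to 1.44) of clone 2 calls were m6A, and the level at DRACH adenosines was 5.66%, 5.72% and 5.34%. None of the 20 differed from WT in both clones at an adjusted p below 0.05 (two-sided Fisher's exact test over 1009 genes), where 0.0991% of all genes did. In clone 1, 4 had an unadjusted p below 0.05, and 1 of these 4 also did in clone 2, where it was the only 1, and the lowest adjusted p was 0.411 and 0.397 (Fisher's exact test). Both clones are compared with the same WT library, so their differences from it are not independent.

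Grwd1, covered here in its last exon alone, had the highest level in all 3 libraries, 7.44% (6.73 to 8.21) in WT, 8.28% (7.49 to 9.14) in clone 1 and 7.64% (6.87 to 8.45) in clone 2. Ncl was at 1.19% (1.15 to 1.23), 1.21% (1.16 to 1.25) and 1.17% (1.13 to 1.22), on 238946 to 277752 valid calls. Nolc1 was at 2.03%, 1.91% and 2.13%, and Nop2 at 2.77%, 2.84% and 2.55%. For each of these 4 the intervals of the 3 libraries overlapped.

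The RNA polymerase I subunits were Polr1c, at 1.25%, 1.06% and 1.19%, and Polr1d, at 3.43% (3.0 to 3.90), 2.70% (2.33 to 3.12) and 3.0% (2.65 to 3.38). The snoRNP mRNAs included Nop10 (1.66%, 1.76% and 1.51%) and Nop56 (1.27%, 1.07% and 1.24%). Npm1 was at 0.932%, 0.813% and 0.776%, on 2091 to 2836 valid calls. Nop16, a large subunit factor, was at 2.55% (1.79 to 3.51), 4.14% (3.18 to 5.29) and 3.27% (2.46 to 4.25), on 1412 to 1623 valid calls. Polr1d, Nop56 and Nop16 had an unadjusted p below 0.05 in clone 1 (0.0171, 0.0236 and 0.0226, Fisher's exact test). In clone 2 they did not (0.145, 0.782 and 0.281, Fisher's exact test). Polr1d and Nop56 were lower than WT in clone 1 and Nop16 was higher.

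Gnl3 was the 1 mRNA of 20 with an unadjusted p below 0.05 in both clones (Fisher's exact test), where 3.27% of all genes had one, and is named after its values were seen. It was at 1.04% (0.897 to 1.19) in WT, 0.774% (0.648 to 0.917) in clone 1 and 0.828% (0.707 to 0.964) in clone 2 (adjusted p = 0.411 and 0.397, Fisher's exact test). Its DRACH adenosines held little m6A, 0.425%, 0.234% and 0.47% in the same order. Its 1 site in this dataset was at a CCATG motif, where 38.3%, 38.9% and 39.3% of calls failed. Of the large subunit factors, Nol9 was at 2.22% (1.48 to 3.19), 3.06% (2.27 to 4.04) and 2.90% (2.17 to 3.79), Pa2g4 at 1.88%, 1.87% and 1.92%, Rrp1 at 0.791%, 0.833% and 0.965%, and Bop1 at 0.646%, 0.208% and 0.627%. Rrp9 was at 1.34%, 1.73% and 1.16%, and for each of these 5 the intervals of the 3 libraries overlapped. Together with Utp14a, Nol7, Utp4 and Rrp15 they had log2 ratios to WT of -1.63 to 0.87 in clone 1 and -0.63 to 0.39 in clone 2. Bop1 and Utp4, at the ends of the clone 1 range, had 1083 to 2494 valid calls.

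There were 50 sites on 15 of the 20 mRNAs, among 1847 on all genes, 40 of them at DRACH motifs. A site here had more than 25 valid calls in all 3 libraries and reached 25% m6A in at least 1 of them. Coverage was lower than in the other dataset, with medians of 39, 35 and 37 valid calls in WT, clone 1 and clone 2. Their median levels were 40.2%, 46.2% and 39.7% in the same order, and 34 of the 50 reached 25% in all 3 libraries. None differed from WT in both clones at an adjusted p below 0.05, where 0.0541% of all sites did, and 2 of the 50 did at an unadjusted p below 0.05 (Fisher's exact test), where 2.17% of all sites did. These 2 were the only sites with an unadjusted p below 0.05 in clone 1, and clone 2 had 4 with them included, none of which passed adjustment (lowest adjusted p 0.424 and 0.313, Fisher's exact test). The median difference from WT was 4.21 percentage points in clone 1 and 1.78 in clone 2, and over all sites 2.44 and 2.53. In WT 40 of the 50 reached 25%, and the others entered through a clone. The selection thus favours higher levels in the clones, and the signs of these medians are not read as a result.

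**Figure D4:**
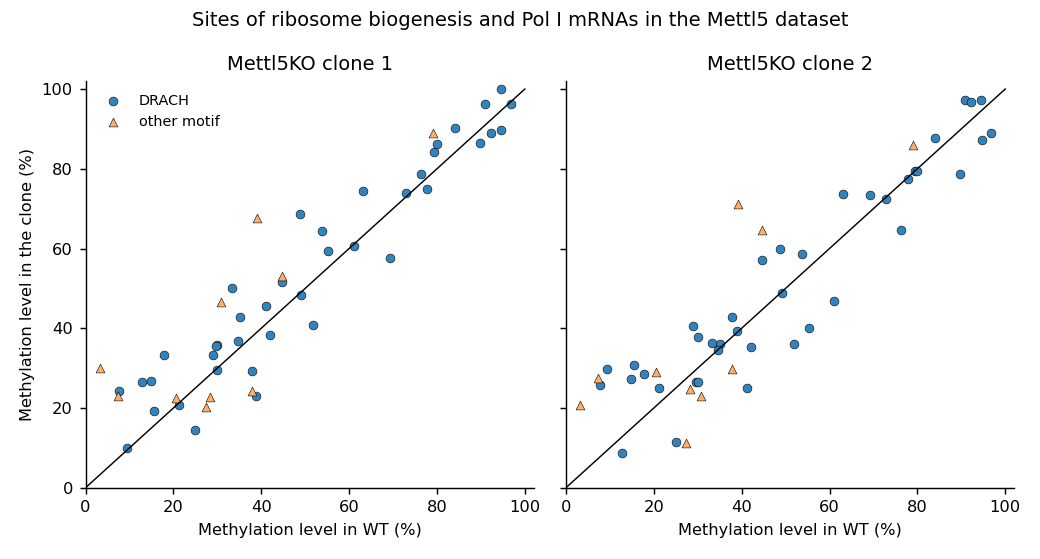
Methylation level (%) of the 50 sites of these mRNAs in WT (x axis) against Mettl5KO clone 1 (left) and clone 2 (right), with circles for DRACH sites, triangles for other motifs and a line at equal levels. Points lie on both sides of the line, 32 of 50 above it in clone 1 and 28 of 50 in clone 2.

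A log2 fold change of 1.5 or more in both clones was met by 3 of the 50 sites, where 1.14% of all sites met it. A log2 fold change of -1.5 or less in both was met by none, where 0.217% did. The 3 are shown because they carry the largest ratios in both clones, with capitals as before.
Grwd1, 54 bases after the stop codon (3′ UTR, exon 8 of 8, chr7:45825712-45825732, minus strand): tggatcggTTAACttggcaag
Nol9, 1411 bases after the stop codon (3′ UTR, exon 12 of 12, chr4:152059876-152059896, plus strand): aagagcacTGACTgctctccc
Pa2g4, 46 bases before the stop codon (coding sequence, exon 12 of 12, chr10:128558942-128558962, minus strand): actgtagaGAATGccaccagt

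In WT they rested on 1 or 2 m6A calls, at 3.23% (Grwd1), 7.69% (Nol9) and 7.41% (Pa2g4). With WT under 25%, each counted as a site only because a clone reached 25%. A higher level than WT in at least 1 clone was therefore fixed by the selection, and the ratios are a description. The Grwd1 adenosine was m6A in 1 of 31 valid calls in WT, 9 of 30 in clone 1 and 6 of 29 in clone 2, with ratios to WT of 9.30 (1.29 to 408) and 6.41 (0.778 to 295). The Nol9 adenosine was m6A in 2 of 26, 8 of 33 and 9 of 35, with ratios of 3.15 (0.629 to 30.5) and 3.34 (0.692 to 31.8). The Pa2g4 adenosine was m6A in 2 of 27, 9 of 39 and 8 of 29, with ratios of 3.12 (0.645 to 29.6) and 3.72 (0.743 to 36). Only the Nol9 site has a DRACH motif, and none passed an adjusted p below 0.05 in either clone (Fisher's exact test).

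The 2 sites with an unadjusted p below 0.05 in both clones, named after their values were seen, were that Grwd1 adenosine and a Nolc1 adenosine at CCAGT in exon 7 of 13. The Nolc1 adenosine was at 39.1% (25.1 to 54.6) of 46 in WT, 67.6% (50.2 to 82.0) of 37 in clone 1 and 71.1% (54.1 to 84.6) of 38 in clone 2 (adjusted p = 0.508 and 0.313, Fisher's exact test). In the other dataset the same adenosine was at 54.4% in DMSO and 39.5% in STM2457. WT was there lower than DMSO by 15.3 percentage points. Failed calls numbered 15, 12 and 25 in WT, clone 1 and clone 2, and with them as unmodified its levels were 29.5%, 51.0% and 42.9%.

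The Polr1d site that was not responsive to STM2457 was at 90.9% of 55 in WT, 96.2% of 53 in clone 1 and 97.1% of 70 in clone 2. The Nop2 site 5 bases after the stop codon was at 96.8% of 63, 96.3% of 27 and 88.9% of 45. Neither the Nol9 nor the Pa2g4 nor the Nop2 site that failed to respond had more than 25 valid calls in all 3 libraries of this dataset and a level of 25%.

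No mRNA of the 20 passed a 2-fold difference in depth from WT in both clones, where 0.922% of 976 genes did. Their log2 ratios ran from -0.71 (Nop2) to 0.84 (Pa2g4) in clone 1 and from -0.22 (Rrp1) to 0.65 (Nol9) in clone 2, around medians of 0.21 and 0.27, against 0.13 and 0.16 over all genes. Npm1 and Ncl, which were more than 2-fold higher in STM2457 than in DMSO, had log2 ratios of 0.19 and 0.08 in clone 1 and 0.50 and 0.17 in clone 2. For Ncl the direction turned with the stretch. Exons 3 to 11 gave 0.09 in clone 1 and 0.21 in clone 2, and exons 12 to 14 gave -0.02 and -0.41.

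Levels at 42 adenosines of 14 mRNAs could be set side by side between DMSO and WT, the libraries without inhibitor or knockout. Pearson's r across these sites was 0.83, as a description, since sites share libraries, motifs and transcripts. WT was higher at 15 and lower at 27, by a median of -4.57 percentage points. At 6 sites the 95% intervals of the 2 libraries did not overlap. Line, DMSO treatment, dataset and batch cannot be told apart in this comparison.

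The widest gap was at a Grwd1 adenosine 335 bases after the stop codon, shown because it separates the datasets and chosen after its values were seen.
Grwd1, 335 bases after the stop codon (3′ UTR, exon 8 of 8, chr7:45825431-45825451, minus strand): aacttcagGAACTttaagggt

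It was at 31.1% (22.9 to 40.2) of 119 valid calls in DMSO and 0.877% (0.0222 to 4.79) of 114 in STM2457. In the Mettl5 dataset it was at 92.3% (79.1 to 98.4) of 39 in WT, 88.9% (73.9 to 96.9) of 36 in clone 1 and 96.7% (82.8 to 99.9) of 30 in clone 2. The next Grwd1 sites upstream, 31 and 45 bases away, were at 75.8% and 87.4% in DMSO and at 69.2% and 89.7% in WT. At the other 41 adenosines the difference of WT from DMSO was between -29.2 and 17.8 percentage points, and without this site r was 0.91.

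**Figure D5:**
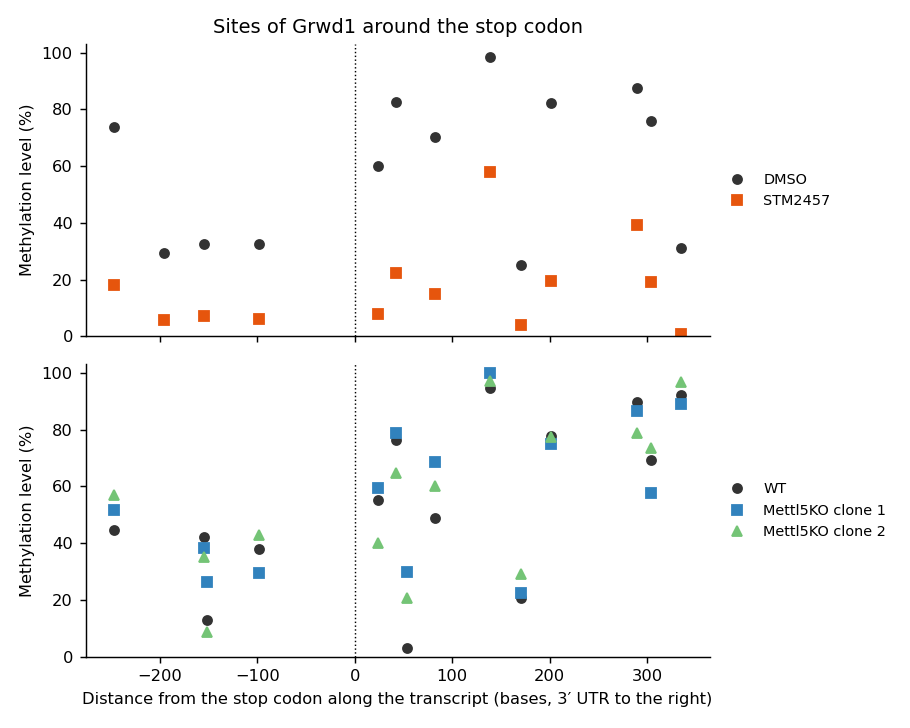
Methylation level (%) of Grwd1 sites against their distance from the stop codon in bases (3′ UTR to the right of the dotted line), in DMSO and STM2457 (top) and in WT and the Mettl5KO clones (bottom). The site at 335 bases is at 31.1% in DMSO and at 88.9% to 96.7% in the lower panel, while the 139-base site is near the top in DMSO and in all 3 libraries below.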

How the data were processed

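Direct RNA libraries of mESCs were analysed from tables with 1 line per position. Per the methods, the authors separated barcoded reads with WarpDemuX, used dorado to call bases and m6A and to map reads to mm10, and tabulated calls with modkit pileup. They kept positions above a coverage limit in all libraries of a dataset and, with bedtools, those on RefSeq exons. The lowest coverage found here was 25. This favours abundant transcripts and, since reads start at the poly(A) tail, 3′ ends. The deposited counts (valid, m6A, unmodified and failed calls) were not normalised. The deposited percent values are m6A over valid calls. Failed calls, 8.31% to 9.15% of calls by library and more at some adenosines, lie outside them.

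Positions were placed on exons of GENCODE M21 protein-coding genes on the call strand, where 99.85% (DMSO and STM2457) and 99.87% (WT and clones) had an A. Groups came from the labels. Genes, by summed calls, and sites were compared by two-sided Fisher's exact tests (scipy 1.17.1) with Benjamini-Hochberg adjustment over all genes or sites and a threshold of 0.05. These compare libraries and cover counting error only. Depth was a gene's share of valid calls, for genes with at least 10 positions, without a test. Statistics were tested on simulated data with independent calls and no variation between libraries. The simulation therefore does not cover dependence within reads or differences between replicate libraries. Alternatives were other limits on coverage, level, p, relative decrease and fold, DRACH adenosines alone, exons of protein-coding transcripts, failed calls as unmodified, shared positions left out, all deposited positions, another depth scaling, and clones summed or left out.

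The members and gene lists were chosen with earlier results of these data known. Every mRNA with a site is named. Values in every library are given for the 20 mRNAs with the most valid calls in DMSO, those called in both clones or past the depth threshold, and those with a site not responsive to STM2457. Single sites described are those not responsive, the 10 of highest DMSO level with at least 100 valid calls in both libraries, the highest of each mRNA with 3 or more sites, and those called in either clone or past a log2 fold change of 1.5 in both. The analyses by exon and junction and of failed calls at single sites were added after seeing the data.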

Additional observations from a re-analysis of the deposited data

How the results depend on the processing

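The number of sites lower in STM2457, 112 of 124, was 58 of 61 at a coverage of at least 50, 107 of 110 with DRACH sites only, 111 of 115 with failed calls as unmodified and 114 of 127 at a coverage of at least 25. It was a smaller share at a level of 10% or more (161 of 279) and over all DRACH positions (156 of 689), which hold adenosines with little m6A in either library. The 4 sites not responsive to STM2457 became 2 at a coverage of at least 50, 2 with DRACH sites only and 2 with failed calls as unmodified. They became 28 of 251 at a level of 10% or more, 13 with a relative decrease under 50% as the limit and 31 with 25% or more in both libraries as the definition. At 1.5-fold, 10 mRNAs in place of 3 were past the depth limit in STM2457, and 1 in place of 0 in both clones. The mRNAs lower in STM2457 numbered between 17 of 20, at a coverage of at least 50, and 27 of 32, with DRACH adenosines only. The median relative decrease lay between 77.98% and 78.26%. The counts of mRNAs and of sites that differed from WT in both clones were 0 under every alternative run, and leaving out clone 1 or clone 2 gave 0 to 0 for mRNAs, sites and depth. For Ncl, the log2 depth ratio of 1.17 was 1.08 over exons 3 to 11 and 1.87 over exons 12 to 14, alternatives chosen after seeing the data. No paired analysis was possible because the groups compared share fewer than 2 replicate numbers. The median coverage was 45 to 64 valid calls per position, and DMSO, STM2457 and WT had 1 library each, which limits what can be seen at single sites.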
